A study of Mus musculus with 6 samples.

Results

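The immediate early transcription factors examined here were Jun, Junb, Jund, Fos, Fosb, Fosl2, Egr1, Ier2, Ier3 and Atf3, and they were measured in embryos of diabetic and of control pregnancies. Every probe set that the platform table pairs with exactly 1 of these symbols was taken, which gave 13 probe sets for the 10 genes, out of 45101 probe sets and 18194 genes on the array. The diabetes-exposed group consisted of whole FVB mouse embryos (an inbred strain) dissected at 10.5 days of gestation. Their dams were 7 to 9 weeks old when they received 2 injections of 100 mg per kg streptozotocin, a toxin of pancreatic beta cells, and their blood glucose exceeded 250 mg per dl. The control group consisted of FVB embryos of the same stage from pregnancies without diabetes, and whether their dams had received the injection buffer is not given in the sources used here. RNA from 3 embryos of 3 different pregnancies was combined in each pool, so that 3 diabetes-exposed and 3 control pools represented 9 embryos per group, and differences between single embryos are averaged within a pool. Each pool was hybridised to 1 Affymetrix array of mouse probe sets.

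Immediate early genes are transcribed within minutes of a growth factor, stress or depolarisation signal without the need for new protein synthesis. Jun, Junb and Jund pair with each other or with Fos, Fosb and Fosl2 through leucine zippers, and the resulting AP-1 dimers bind DNA. Egr1 is a zinc finger factor, and Atf3 is a leucine zipper factor of the stress response. Ier2 and Ier3 are induced by the same signals but belong to neither family: Ier2 is a nuclear regulator of transcription, and Ier3 is a small protein that modulates survival of stressed cells. Mouse embryos that lack Jun die in mid-gestation with defects of the liver and the outflow tract of the heart, so the gene is needed at about the stage sampled here.

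The RefSeq promoter table (assembly GRCm38.p6) held 8 of the 10 genes, each with 250 bases before and 50 bases after a transcript start. These 300-base entries were searched on both strands for letters that AP-1, other factors of this group and serum response factor are known to bind. Only exact letters within these bases were counted, so a gene without a match may still have an altered or more distant site. A match was found in 3 of the 8 entries, and Ier2 and Egr1 had no entry. The Jun promoter held TGACATCA, the variant AP-1 site through which Jun is known to act on its own gene, 45 to 38 bases before the start, and 3.62% of all 32851 promoters held these letters. The Egr1 site GCGNGGGCG, where N is any base, stood 50 to 42 bases before the tabulated start of Fosb and 79 to 71 bases before that of Fosl2, and was held by 5.55% of all promoters. The start in the table lies inside the annotated Fosb gene, so the Fosb match is within the gene and not upstream of it. No match in any of the 8 entries was found for the AP-1 site TGANTCA, held by 7.81% of all promoters, for the cAMP response element TGACGTCA (1.79%), or for the CArG box of serum response factor (1.63%). The 110 bases before the start are shown for Jun, the member with the largest fold change below, and for Fosl2, the other tested member with a match, with the match in capitals. The Jun window is chr4:95052223-95052332 on the minus strand and the Fosl2 window is chr5:32136362-32136471 on the plus strand.
Jun: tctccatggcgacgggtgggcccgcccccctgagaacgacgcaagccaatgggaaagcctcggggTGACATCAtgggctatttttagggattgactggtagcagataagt
Fosl2: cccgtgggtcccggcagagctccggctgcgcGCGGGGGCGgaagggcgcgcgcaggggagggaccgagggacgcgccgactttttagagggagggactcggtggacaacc

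The values are signals in arbitrary units, scaled so that the 2% trimmed mean was the same on all 6 arrays. Median signals were 74.1 to 78.9 on the diabetes-exposed arrays and 82.5 to 103.3 on the control arrays. The poly-A spikes, bacterial transcripts added to the RNA before labelling, gave a ratio of 3' to middle signal of 6.56, 3.47 and 7.00 on diabetes-exposed arrays 1, 2 and 3, against 2.10, 2.07 and 2.52 on control arrays 1, 2 and 3. The groups did not overlap in this measure of labelling (two-sided exact permutation p = 0.1, the smallest that 3 against 3 arrays allow). For the embryos' own beta-actin, 3' signal over 5' signal was 10.1, 3.10 and 10.3 in diabetes-exposed pools and 1.71 to 2.19 in control pools, and that of Gapdh was 1.84, 0.972 and 1.73 in diabetes-exposed pools and 0.824 to 0.922 in control pools, also without overlap. The embryonic globins Hbb-y and Hba-x were high in every pool, as the tissue label implies, at 28090 ± 2990 and 22570 ± 2255 in diabetes-exposed pools against 24580 ± 1277 and 20750 ± 809.1 in control pools (SD, n = 3 each). Of 10 embryo markers, 3 (30%) were called higher (Myl7 and Tnnt2 of heart muscle, and Afp). Another 3 (30%) were called lower (Sox2 and Nes of neural progenitors, and Hoxb4). Among all tested genes 17.6% were higher and 19.9% lower. The 4 markers not called were Pax3, also a neural gene, and globins. Pax3 had a log2 fold change of 0.08 (adjusted p = 0.66), and the globins had 0.12 to 0.19. With 10 genes these shares are not read as a result about heart or neural tissue. Prl8a2, a prolactin-related hormone of the maternal decidua, was at 30.7 to 39.3 in the diabetes-exposed pools and 5699 to 6522 in the control pools, while the summed signal of the other 13 decidua and placenta markers on the array was 225.2 to 361.0 in diabetes-exposed pools and 278.7 to 355.0 in control pools. Only 3 of these 14 markers were bright enough to test, of which Prl8a2 and Pappa2 were lower, and Tpbpa of the trophoblast was at 14.1 or less in every pool. The 7 macrophage markers summed to 1332 to 1571 in diabetes-exposed pools and 1204 to 1273 in control pools. Of the 7, Csf1r and C1qb were called higher (28.6%) and 0 lower, against 17.6% higher and 19.9% lower among all tested genes. C1qa, Cd68 and Lyz2 had log2 fold changes of -1.28, -0.57 and -0.51 and were not called. The median of the 7 was 0.12. The part of decidual RNA and of macrophages in the results below was not tested.

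Jun and Ier2 were significantly lower in the diabetes-exposed embryos, by 2.41-fold and 1.60-fold, with an adjusted p under 0.05 across all tested probe sets, the threshold used throughout. These were 2 of the 9 tested genes (22.2%), against 19.9% of all 13956 tested genes that were called lower. Of the other 7 tested genes, Junb, Jund, Fos, Fosl2 and Egr1 had log2 fold changes between -0.55 and -0.37, and Ier3 and Atf3 had values of 0.55 and 0.16. None of these 7 passed the threshold. In whole embryos, fewer cells that carry a transcript and less of it per cell cannot be told apart.

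**Figure D1:**
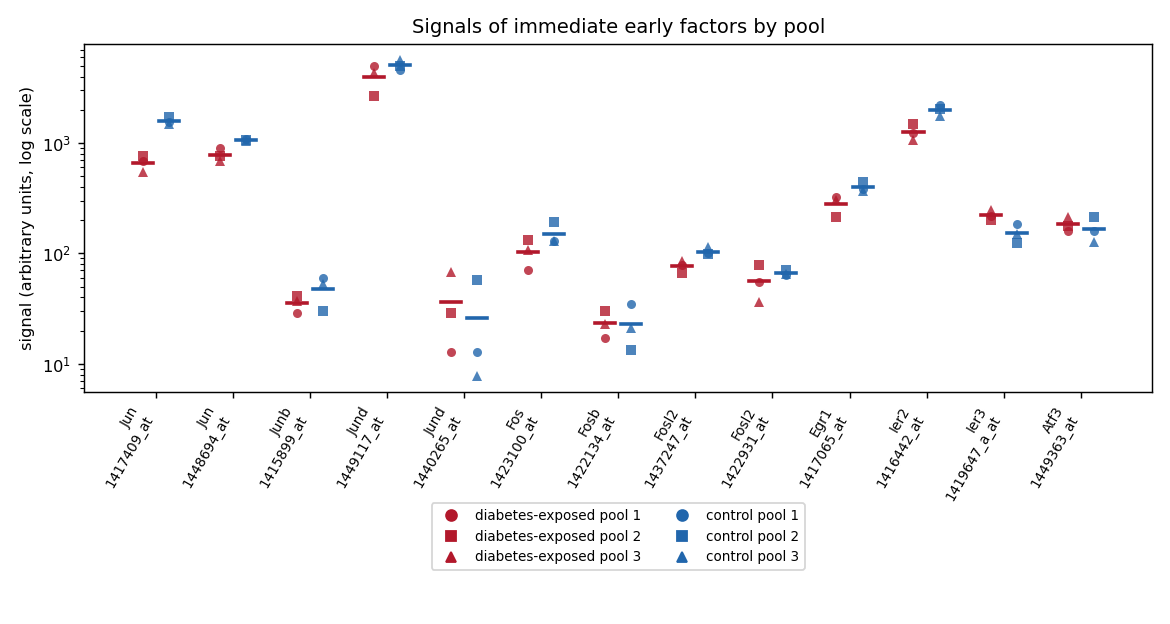
Signal (arbitrary units, vertical log axis) of each probe set of the 10 genes, drawn as 1 point for each pool with a line at the group mean; red marks diabetes-exposed pools and blue marks control pools. The red and blue points do not overlap for both Jun probe sets, Ier2, Egr1, Ier3 and Fosl2 1437247_at, and overlap for the others.

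Jun, the main partner of the Fos proteins in AP-1, had 2 probe sets, and both were lower. At 1417409_at the signal was 681.5, 767.3 and 542.4 in diabetes-exposed pools 1, 2 and 3, against 1543.8, 1717.4 and 1492.8 in control pools 1, 2 and 3. Every exposed pool was far below every control pool, and the spread within each group was small beside the gap. The means were 663.7 ± 113.5 in diabetes-exposed and 1585 ± 117.7 in control pools (SD, n = 3 each), a log2 fold change of -1.27 (SE 0.14, 95% confidence interval -1.58 to -0.95, adjusted p = 6.0e-04). With each pool omitted in turn, this value ran between -1.38 and -1.13, and the adjusted p was at most 0.0053.

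At the other Jun probe set, 1448694_at, the signal was 892.3, 760.6 and 683.2 in the diabetes-exposed pools and 1081.3, 1075.4 and 1043.5 in the control pools. The groups again did not overlap, but the gap was small. The means of 778.7 ± 105.7 in diabetes-exposed and 1067 ± 20.3 in control pools gave a log2 fold change of -0.46 (SE 0.12, interval -0.73 to -0.20, adjusted p = 0.015), a 1.38-fold difference. This call was lost without diabetes-exposed pool 3 (adjusted p = 0.053), without control pool 1 (0.058) or without control pool 2 (0.056).

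The 2 Jun probe sets changed unequally. The ratio of 1417409_at to 1448694_at within an array was 0.764, 1.01 and 0.794 on the diabetes-exposed arrays and 1.43, 1.60 and 1.43 on the control arrays. The groups did not overlap in this ratio, with a difference of -0.80 on the log2 scale (two-sided exact permutation p = 0.1, the smallest possible). Exposed pool 2, with a spike ratio of 3.47, had the probe set ratio nearest to the controls, and the pools with spike ratios of 6.56 and 7.00 had the lowest. The distance of each probe set from the 3' end of Jun was not known, and the part of labelling in this difference was not tested.

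Junb, a Jun relative that restrains proliferation in several cell types, was dim in every pool. Its signal was 29.0, 41.1 and 37.1 in diabetes-exposed pools and 59.8, 30.3 and 52.8 in control pools. Control pool 2 lay among the exposed pools, so the groups overlapped. The log2 fold change of -0.37 (adjusted p = 0.53) had a wide interval, -1.31 to 0.57, which spans both a decrease of more than 2-fold and an increase.

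Jund, the member of the family that is expressed without a stimulus in most tissues, gave a signal of 5003.2, 2638.4 and 4333.4 at 1449117_at in diabetes-exposed pools, against 4581.1, 4943.5 and 5667.4 in control pools. Pool 2 was far below the other exposed pools, and pool 1 was inside the control range. The means of 3992 ± 1219 in diabetes-exposed and 5064 ± 553.1 in control pools differed by -0.39 on the log2 scale (interval -0.87 to 0.09, adjusted p = 0.19). Without pool 2 the log2 fold change was -0.12. The dimmer Jund probe set, 1440265_at, was below the filter on dim probe sets, a geometric mean signal of 26.7, and was not tested. It ranged between 12.9 and 67.5 in diabetes-exposed pools and between 7.7 and 57.1 in control pools.

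Among the Fos genes none passed the threshold. Fos, the archetype of the immediate early response, had a signal of 70.1, 133.3 and 108.3 in diabetes-exposed pools and 128.8, 190.9 and 129.1 in control pools. Pool 2 of each group was its highest, and exposed pool 2 lay above control pools 1 and 3. The means of 103.9 ± 31.8 in diabetes-exposed and 149.6 ± 35.8 in control pools corresponded to a log2 fold change of -0.55 (interval -1.22 to 0.12, adjusted p = 0.18).

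Fosb, best known for its accumulation in stimulated neurons, was near the bottom of the scale and was not tested. Its signal was 17.3, 29.9 and 22.7 in diabetes-exposed pools and 34.6, 13.4 and 20.9 in control pools. The groups overlapped completely, with means of 23.3 ± 6.32 in diabetes-exposed and 23.0 ± 10.8 in control pools.

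Fosl2, a Fos relative with roles in bone and cartilage, had 2 tested probe sets. At 1437247_at the signal was 78.0, 66.1 and 85.9 in diabetes-exposed pools and 100.1, 97.9 and 114.0 in control pools. Every exposed pool was below every control pool, with a log2 fold change of -0.45 (interval -0.99 to 0.10) that did not pass the threshold (adjusted p = 0.18). At 1422931_at the signal was 54.6, 78.7 and 36.6 in diabetes-exposed pools and 63.7, 70.3 and 64.6 in control pools, and here exposed pool 2 was above all controls. The log2 fold change at that probe set was -0.29 (interval -1.09 to 0.51, adjusted p = 0.56).

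Egr1, which is induced through serum response factor and activates growth and repair genes, had a signal of 324.5, 213.0 and 306.3 in diabetes-exposed pools and 382.5, 440.0 and 364.7 in control pools. The groups did not overlap, and pool 2 was the lowest of the exposed pools. The means were 281.3 ± 59.8 in diabetes-exposed and 395.7 ± 39.4 in control pools. Egr1 narrowly missed the threshold, with a log2 fold change of -0.51 (interval -0.93 to -0.09, adjusted p = 0.060).

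Ier2 gave a signal of 1220.2, 1479.5 and 1068.4 in diabetes-exposed pools and 2209.0, 2020.1 and 1763.5 in control pools. Every exposed pool was below every control pool. The means of 1256 ± 207.9 in diabetes-exposed and 1998 ± 223.6 in control pools gave a log2 fold change of -0.68 (SE 0.14, interval -0.99 to -0.36, adjusted p = 0.0060). With each pool left out in turn the value ran between -0.80 and -0.57, and the adjusted p was at most 0.031.

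Ier3 went the other way. Its signal was 216.3, 199.6 and 247.9 in diabetes-exposed pools and 183.9, 123.9 and 150.7 in control pools. No exposed pool was as low as any control pool, and the means of 221.3 ± 24.5 in diabetes-exposed and 152.8 ± 30.1 in control pools gave a log2 fold change of 0.55 (interval 0.09 to 1.003), 1.46-fold, with an adjusted p of 0.063. Atf3 had a signal of 160.6, 176.8 and 214.0 in diabetes-exposed pools and 158.1, 214.7 and 127.3 in control pools. The Atf3 groups overlapped, and the log2 fold change of 0.16 (interval -0.37 to 0.69, adjusted p = 0.62) was -0.01 without control pool 3.

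**Figure D2:**
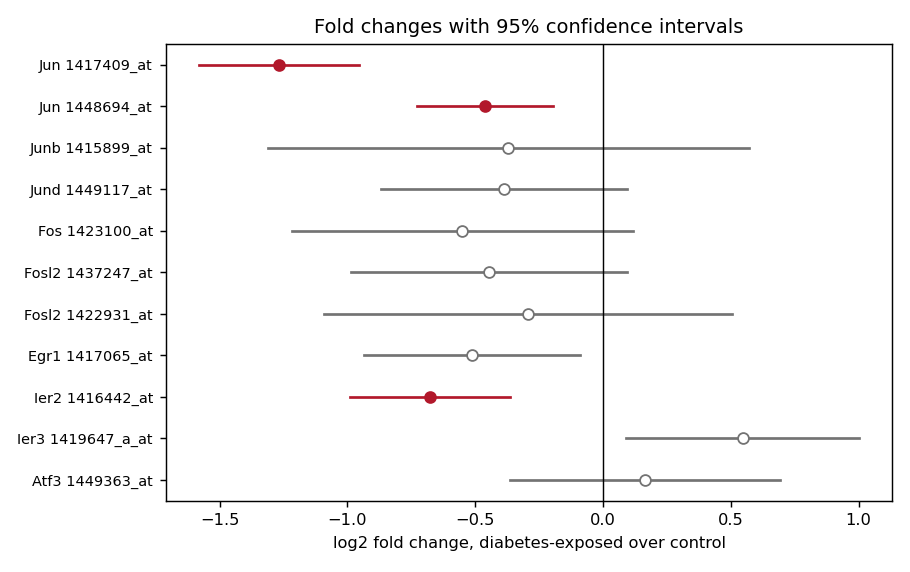
Log2 fold change, diabetes-exposed over control, of the 11 tested probe sets with 95% confidence intervals from the fit across all probe sets; filled red points have an adjusted p under 0.05 and open points do not. The filled points are the 2 Jun probe sets at -1.27 and -0.46 and Ier2 at -0.68, and 9 of the 11 points lie below 0.

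Such decreases were common on these arrays. Of the 11 tested probe sets of the group, 3 (27.3%) were called lower, against 21.8% of all 30025 tested probe sets, and 1 was lower with at least a 2-fold change, against 11.0% of all. The groups did not overlap and exposed pools were lower at 5 of the 11 (45.5%), against 28.0% of all tested probe sets, and exposed pools were higher without overlap at 1 (9.09%), against 21.9% of all. By limma, 0 of the 11 were called higher, against 14.4% of all tested probe sets. By gene, 0 of the 9 were called higher, against 17.6% of all tested genes. With no adjustment of p, 3 genes were lower (Jun, Ier2 and Egr1) and 1 was higher (Ier3) at p under 0.05, and the methods' t-test called 0 in either direction after adjustment. By limma the share of members called lower was near that of the array as a whole, and the share called higher was below it. The count called higher was 1 of the 9 genes under median centring, quantile normalization and cyclic loess. With 9 genes these shares are not read as a result about the members. The median log2 fold change was -0.45 for the 9 genes and -0.0003 for all tested genes.

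Since each array is scaled to a common mean, the members' values are relative to the other transcripts, and other scalings moved them. Median centring, which raised the median of all genes by 0.30 on the log2 scale, left Jun at -0.97 with its call, moved Ier2 to -0.38 (adjusted p = 0.077) and moved Ier3 to 0.84 (adjusted p = 0.0096). Ier3 was also called higher under quantile normalization (0.87, adjusted p = 0.013) and cyclic loess (0.78, adjusted p = 0.019), and Jund was called lower under quantile normalization (-0.59, adjusted p = 0.035). The weaker Jun probe set, 1448694_at, had -0.16 (adjusted p = 0.46) under median centring and missed the threshold under quantile normalization (adjusted p = 0.083). Under these 3 scalings the sign changed only at Fosl2 1422931_at, which was at 0.0051 after median centring.

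**Figure D3:**
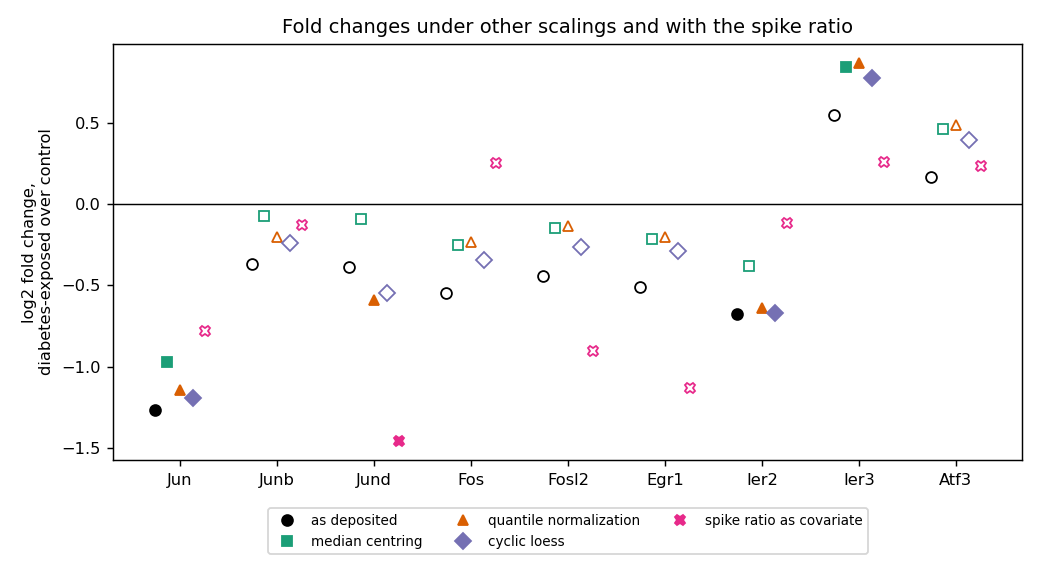
Log2 fold change, diabetes-exposed over control, of the 9 tested genes (horizontal axis) with signals as deposited, under 3 other scalings, and fitted with the spike ratio; filled symbols have an adjusted p under 0.05. Jun lies between -1.27 and -0.78 under all 5 settings, Ier3 above 0 under all 5, and Fos is at -0.55 as deposited and 0.25 with the spike ratio.

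The members also differed in how they followed the spike ratio. Exposed pool 2, whose spike ratio of 3.47 was nearest to the controls, was the highest of the exposed pools at 5 of the 11 tested probe sets (Jun 1417409_at, Junb, Fos, Fosl2 1422931_at and Ier2) and the lowest at 4 (Jund, Fosl2 1437247_at, Egr1 and Ier3). At Ier3, which was higher in exposed pools, the lowest exposed pool was the one nearest to the controls (199.6 against 123.9 to 183.9). At Jund, Fosl2 1437247_at and Egr1 exposed pool 2 was instead the farthest from the controls. At Jun 1417409_at this pool was at 767.3 and the lowest control pool at 1492.8. The spike ratio of exposed pool 2 was above that of every control pool. With the spike ratio as a covariate, Jun had -0.78 (adjusted p = 0.14), Ier2 had -0.11 (adjusted p = 0.84) and Ier3 had 0.26 (adjusted p = 0.84). Egr1 had -1.13 (adjusted p = 0.14) and Jund had -1.46 (adjusted p = 0.015). Under that covariate 1 of the 9 genes, Jund, was called lower and 0 higher, against 1.73% lower and 0.0788% higher among all tested genes, where the spike ratio and the exposure are nearly the same split of the arrays. For every member, the difference between exposed and control pools cannot be told apart from the difference in the spike ratio.

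**Figure D4:**
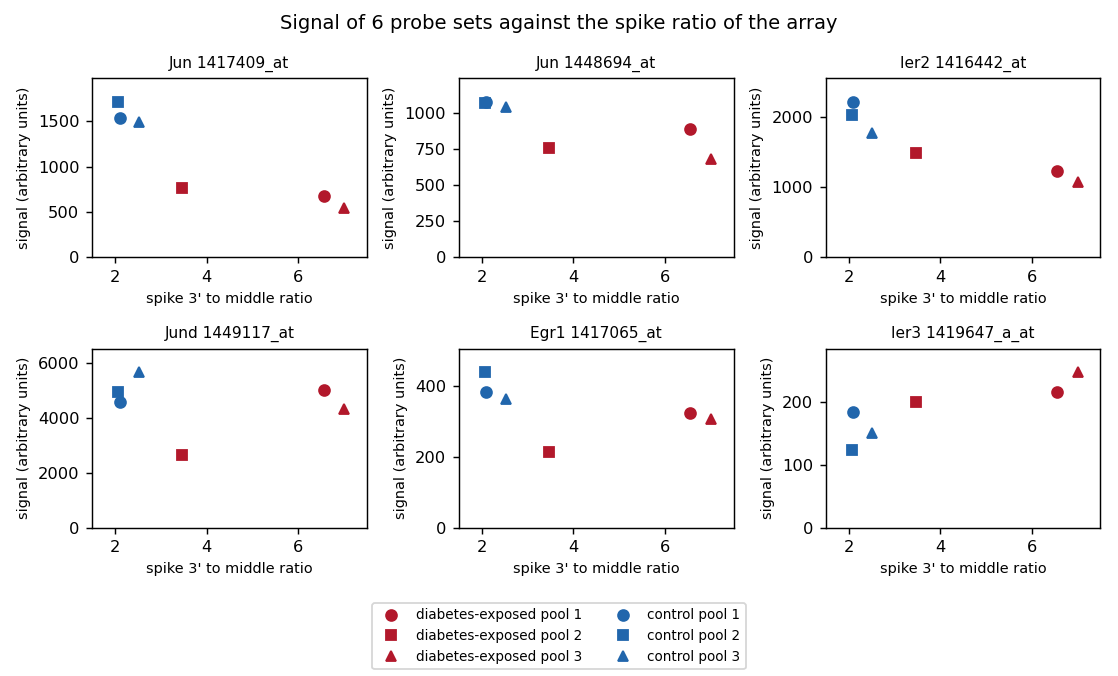
Signal (arbitrary units, vertical axis from 0) of 6 probe sets against the ratio of 3' to middle signal of the poly-A spikes on the same array (horizontal axis), with 1 point per pool; red marks diabetes-exposed and blue marks control pools. At Jun 1417409_at exposed pool 2 is at 767.3 with a ratio of 3.47, at Ier2 it is at 1479.5, between the other exposed pools and the control pools, and at Jund and Egr1 it is the lowest point.

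Other genes of the same response were read at 1 probe set each. Of 41 tested immediate early genes outside the group, 16 (39.0%) were called lower and 5 (12.2%) higher, against 19.9% lower and 17.6% higher among all tested genes, with a median log2 fold change of -0.25. Median centring gave 9 lower and 10 higher, and the higher count was 2 without diabetes-exposed pool 1 or control pool 1 and 3 without diabetes-exposed pool 3 or control pool 2. When eBayes had no trend the higher count was also 2. The methods' t-test called 4 lower and 0 higher after adjustment. Ier5 and Ier5l, relatives of Ier2, were lower: Ier5 was at 420.2, 396.7 and 397.7 in diabetes-exposed pools against 1031.7, 1064.6 and 989.3 in control pools, a log2 fold change of -1.34 (adjusted p = 1.9e-04), and Ier5l had -1.78 (adjusted p = 2.3e-04). Dusp4, a phosphatase that turns off MAP kinases, was at 390.3 ± 37.8 in diabetes-exposed and 1064 ± 77.2 in control pools, a log2 fold change of -1.45 (adjusted p = 2.2e-04). These 3 were also called when the spike ratio was a covariate (adjusted p = 0.028 for Ier5, 0.049 for Ier5l and 0.046 for Dusp4). The higher genes with the smallest adjusted p were Nfkbia, the inhibitor of NF-kappaB, at 3545 ± 535.8 in diabetes-exposed and 1940 ± 44.1 in control pools (log2 fold change 0.86, adjusted p = 0.0012), Rgs2, a brake on G protein signalling (0.73, adjusted p = 0.0055), and Plk2, a kinase (0.40, adjusted p = 0.016).

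Of 17 tested leucine zipper factors that can partner with or resemble AP-1, 4 (23.5%) were lower and 1 (5.88%) higher, against 19.9% lower and 17.6% higher among all tested genes, with a median log2 fold change of 0.15. Median centring gave 4 lower and 6 higher, with a median of 0.45. The higher count was 3 without diabetes-exposed pool 2 and 0 without diabetes-exposed pool 3, control pool 1 or control pool 2. Mafg, a small Maf protein, was at 191.5 ± 15.9 in diabetes-exposed and 489.1 ± 31.98 in control pools (log2 fold change -1.35, adjusted p = 4.8e-04), and Atf5 (-0.97, adjusted p = 0.0066) and Nfe2l1 (-0.93, adjusted p = 0.0041) were also lower. Nfe2l2, the factor of the antioxidant response, was higher by 0.39 (adjusted p = 0.014).

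Of 23 tested kinases and factors that act upstream of the immediate early genes, 9 (39.1%) were lower and 2 (8.70%) higher, against 19.9% lower and 17.6% higher among all tested genes, and the median log2 fold change was -0.14. The lower count was 3 without diabetes-exposed pool 1, 5 without diabetes-exposed pool 3 or any 1 control pool, and 5 when eBayes had no trend. The higher count was 0 without control pool 1, and 1 without diabetes-exposed pool 1, diabetes-exposed pool 3 or control pool 2. Srf, the serum response factor that drives Fos, Egr1 and other members, was at 376.5, 332.2 and 337.5 in diabetes-exposed pools and 689.9, 766.9 and 695.2 in control pools, with a log2 fold change of -1.04 (adjusted p = 6.6e-04). Srf was also counted among the 16 lower genes of the 41 other immediate early genes. The coactivators Crebbp and Ep300 had log2 fold changes of -0.80 (adjusted p = 4.2e-04) and -0.47 (adjusted p = 0.0059). Map2k4, a kinase that activates the Jun kinases, and Rps6ka3, a kinase downstream of ERK, were higher by 0.62 (adjusted p = 0.011) and 0.38 (adjusted p = 0.016). Creb1, which was not called, was counted both among the 17 leucine zipper factors and among the 23 upstream genes. With the spike ratio as a covariate, limma called 0 of these 17 and 0 of these 23 genes. The methods' t-test, which had no covariate, called 1 of the 17 and 2 of the 23 lower after adjustment.

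Of 13 listed known targets of AP-1, 8 were tested. Of these 1 (12.5%) was called higher and 0 lower, against 17.6% higher and 19.9% lower among all tested genes. With 8 genes these shares are not read as a result about AP-1 targets. The gene called was Cd44, a hyaluronan receptor, higher by 0.35 on the log2 scale (adjusted p = 0.044). It was at 487.4 to 497.5 in diabetes-exposed pools against 365.3 to 419.9 in control pools. By limma 0 of the 8 were called higher with the replicate block, without diabetes-exposed pool 1 or 3, or without control pool 1 or 2. The median log2 fold change of the 8 was 0.03, close to that of all tested genes.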

How the data were processed

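The deposited values were linear signal intensities, 1 for each probe set on each array, computed by the authors in GCOS by MAS5 after one-cycle labelling of total RNA. Their versions are not stated, and detection calls were not used. All 6 arrays had the same 2% trimmed mean, so a signal is relative to the other transcripts of its pool. The table held 0 signals at or under 0 and 0 columns of other samples. The precision is limited by the number of arrays.

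A linear model was fitted to log2 signals without further scaling (limma 3.58.1 under R 4.3.3, lmFit followed by eBayes, trend on). The dimmest 33.3% of probe sets and 64 control probe sets were left out, and p-values were adjusted by Benjamini-Hochberg over the 30025 that remained. A call is an adjusted p under 0.05. The platform table gave 34945 probe sets 1 symbol, 932 several and 9160 none. A gene was read at its brightest tested probe set. The 3 embryos of a pool came from different pregnancies, and the 3 pools of a group were taken as replicates.

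The members and gene lists were chosen with earlier results of these data known. The rule for names took all 10 members, up to 3 higher and 3 lower genes of each list by adjusted p, and Prl8a2, Tpbpa, Csf1r, Cd68, Hbb-y and Hba-x. C1qa, Lyz2, Pax3 and Creb1 are named in addition to that rule. The spike ratio averages, on the log2 scale, 8 probe set pairs of the poly-A spikes. Ratios within an array were compared with two-sided exact permutation tests. Alternatives were a pseudocount of 32, a 50% filter or none, 3 other scalings (median centring, quantile, cyclic loess), eBayes without a trend, the spike ratio as a covariate, each pool left out, a replicate block, the methods' t-test (Welch's test), a 2-fold minimum, and other choices of probe set. The methods' t-test was rerun here on log2 signals with Benjamini-Hochberg adjustment, and Cyber-T, the study's second test, was not run. The fit without diabetes-exposed pools 1 and 3 was added after the data were seen. The procedure was tested on simulated data. Plots used matplotlib 3.10.9 (Python 3.11.15).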

Additional observations from a re-analysis of the deposited data

How the results depend on the processing

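With signals as deposited, 3 of the 11 tested probe sets and 2 of the 9 tested genes were called lower, and 0 of either higher. The lower count was 1 probe set and 1 gene under median centring, with the spike covariate and with a 2-fold minimum, and 0 of both by the methods' t-test after adjustment. The higher count was 1 probe set and 1 gene under median centring, quantile normalization and cyclic loess, and 1 gene at the mean of all tested probe sets of a gene, in each case Ier3. Leaving out each pool in turn gave 2 to 3 lower probe sets, 2 lower genes and 0 higher ones. With diabetes-exposed pools 1 and 3 left out, a setting chosen after seeing the data that leaves 1 exposed pool and takes the spread from the controls alone, 4 probe sets and 3 genes (Jun, Jund and Egr1) were lower, and Ier2 lost its call (adjusted p = 0.087). Jun lost its call with the spike covariate and by the methods' t-test (adjusted p = 0.14 and 0.074), and Ier2 lost it there (0.84 and 0.10) and under median centring. Egr1 passed at the mean of all probe sets (adjusted p = 0.046). Egr1 and Ier3 have 1 probe set each, so averaging left their log2 fold changes at -0.51 and 0.55. Only the adjusted p differed there, from a fit with 1 value per gene. No called member changed direction. The cause was not tested. With probe sets that can read more than 1 transcript dropped, Ier3 had no value, since its only probe set is of that kind.

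Of all tested genes, 2461 were higher and 2779 lower as deposited, against 4066 and 1218 under median centring, 3357 and 2147 under quantile normalization, 2836 and 2367 under cyclic loess, 1883 and 3514 at the mean of all probe sets, 11 and 241 with the spike covariate and 54 and 236 by the methods' t-test. The 41 other immediate early genes gave 9 higher and 12 lower under quantile normalization and 0 and 4 with the spike covariate. The 23 upstream genes gave 3 and 2 under median centring, and 0 higher and 15 lower at the mean of all probe sets. The replicate block left 3 lower probe sets, 2 lower genes and 0 higher. Deviations of pools with the same number correlated at 0, 0.076 and 0.118, and those of pools with unlike numbers at -0.116 to 0.07. With 3 pools per group these values cannot settle whether the numbers pair the pools, and the main fit did not pair them. Signals near the filter limit had little resolution, as for Junb and Fosb, and the 50% filter left Junb out.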
